A study of Mus musculus with 8 samples.

Results

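Open chromatin regions that were called in wild-type and Brg1-deleted cortical neurons alike, both with and without KCl, were compared for how their strength differed after depolarisation in each genotype. A region was included when each of the 4 deposited peak lists had a peak in it, after peaks on chromosomes 1 to 19 that overlapped by at least 1 bp had been merged. This gave 7043 regions of the 60611 merged regions. For each region the highest fold over background was taken in each list and turned into a percentile rank, from 0 for the weakest peak of a list to 100 for the strongest. The KCl response of a genotype is its rank with KCl minus its rank without, and the value followed here is the WT response minus the cKO response, in percentile points. These regions were chosen by presence in every list and not by the size of either response.

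The assay was ATAC-seq, which uses Tn5, a transposase that inserts sequencing adapters where DNA is open. Primary neurons came from the cortex of E16.5 mouse embryos, and libraries were made from 50000 cells each. The 4 conditions were Brg1 WT without KCl (WT basal), Brg1 WT with 50 mM KCl for 1 h (WT KCl), Brg1-cko (BAF53bCre Brg1F/F) without KCl (cKO basal) and the same genotype with 50 mM KCl for 1 h (cKO KCl). TTX at 1 µM, which blocks sodium channels, and APV at 100 µM, which blocks NMDA receptors, were given on day 5 in vitro and KCl on day 6. The labels describe these blockers as a pretreatment for depolarisation and do not say whether basal cultures received them, whether WT cultures carried Cre, or which mouse strain was used. Cre follows the neuronal gene BAF53b (Actl6b), so cells of other types in the culture keep Brg1. Each condition had 2 libraries and 1 list, so no value below has replicate error and no condition was tested against another. Intervals cover counting error only. Where 4 values of a region are given, their order is WT without KCl, WT with KCl, cKO without KCl and cKO with KCl.

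Brg1 (Smarca4) is the ATPase of the BAF complex, which uses ATP to slide or evict nucleosomes and so opens enhancers and promoters. Neurons carry a form of the complex with BAF53b as a subunit. KCl depolarises the membrane, calcium enters through voltage-gated channels, and kinases act on factors such as CREB, SRF and MEF2 that switch on rapid genes (Fos, Egr1, Npas4) and, through their products, delayed ones. CREB binds the cAMP response element and AP-1, the dimer of Fos and Jun proteins, binds its own short element.

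The starts of 5 genes that the results turn on are shown first, as RefSeq sequence of build GRCm38.p6 from 250 bases before the start to 50 after. Csnk1g2 and Armc7 had a higher response in WT, Tmem251 and Smurf1 a lower one, and Fos is the reference activity gene. Capitals mark matches, on either strand, to the CCAAT box (CCAAT), the GC box (GGGCGG), the cAMP response element in its short and full form (TGACG, TGACGTCA) and the TATA box (TATAAA). Csnk1g2 lies at chr10:80622530-80622829 on the + strand, Armc7 at chr11:115475417-115475716 (+), Tmem251 at chr12:102743469-102743768 (+), Smurf1 at chr5:144965781-144966080 (−) and Fos at chr12:85473640-85473939 (+).
Csnk1g2: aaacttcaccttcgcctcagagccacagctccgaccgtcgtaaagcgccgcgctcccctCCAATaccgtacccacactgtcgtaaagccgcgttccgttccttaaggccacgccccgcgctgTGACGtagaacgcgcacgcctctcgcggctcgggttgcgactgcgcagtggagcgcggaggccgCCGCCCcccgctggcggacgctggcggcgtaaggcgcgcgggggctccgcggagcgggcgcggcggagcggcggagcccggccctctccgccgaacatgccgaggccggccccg
Armc7: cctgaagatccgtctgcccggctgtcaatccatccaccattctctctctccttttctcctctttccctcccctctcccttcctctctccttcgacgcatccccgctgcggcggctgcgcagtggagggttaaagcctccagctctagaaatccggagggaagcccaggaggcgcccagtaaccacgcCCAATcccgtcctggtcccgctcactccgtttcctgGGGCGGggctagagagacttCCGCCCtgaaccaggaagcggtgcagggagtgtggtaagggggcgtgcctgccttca
Tmem251: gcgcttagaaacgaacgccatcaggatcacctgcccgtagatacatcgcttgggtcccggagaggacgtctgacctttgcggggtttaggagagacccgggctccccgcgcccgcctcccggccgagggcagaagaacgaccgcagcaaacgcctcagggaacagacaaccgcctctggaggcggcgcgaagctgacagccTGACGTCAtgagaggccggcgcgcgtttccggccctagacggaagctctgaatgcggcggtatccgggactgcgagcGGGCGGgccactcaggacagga
Smurf1: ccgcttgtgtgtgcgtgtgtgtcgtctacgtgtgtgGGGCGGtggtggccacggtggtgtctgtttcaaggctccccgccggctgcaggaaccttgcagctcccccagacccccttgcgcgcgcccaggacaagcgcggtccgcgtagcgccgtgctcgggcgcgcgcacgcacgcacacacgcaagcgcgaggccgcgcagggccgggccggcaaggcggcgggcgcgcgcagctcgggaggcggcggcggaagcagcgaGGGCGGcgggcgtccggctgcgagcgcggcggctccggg
Fos: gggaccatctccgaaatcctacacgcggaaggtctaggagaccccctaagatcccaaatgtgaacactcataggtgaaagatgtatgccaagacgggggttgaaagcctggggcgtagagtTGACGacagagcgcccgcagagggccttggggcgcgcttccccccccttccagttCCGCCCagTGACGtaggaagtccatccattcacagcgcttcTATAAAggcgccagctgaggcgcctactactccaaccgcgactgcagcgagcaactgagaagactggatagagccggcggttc
GC content was 73.0% at Csnk1g2, 62.7% at Armc7, 66.0% at Tmem251, 76.3% at Smurf1 and 58.7% at Fos. The full cAMP response element was found at Tmem251 alone among these 5, the TATA box at Fos alone, and a GC box in each of the 5.

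The lists differed in length, which bears on every rank. On chromosomes 1 to 19 WT had 33328 peaks without KCl and 19847 with it, and cKO had 19921 without and 24947 with. The peaks inside the 7043 regions made up 22.8%, 38.2%, 38.1% and 30.5% of these lists in that order. The shared regions are among the stronger peaks of a list, and their median rank was 87.9, 79.4, 80.1 and 83.4. The longest list thus gave the highest ranks. Each response was therefore also computed from ranks among the 7043 regions alone, where every list has the same length and the same mean rank by construction, and from the summit pileup, the whole number of fragments stacked over a peak's summit. The median pileup over the regions was 47, 38, 41 and 45 fragments, and the lowest lay between 21 and 23. The floor that the peak caller sets from all reads, a measure of depth if fragment lengths are equal, was 9.30, 8.23, 9.47 and 8.36 fragments. From basal to KCl the floor differed by -0.18 on the log2 scale in WT and by -0.18 in cKO, and these 2 differences were within 0.004 of each other.

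Summit pileups, not scaled for depth, were lower with KCl in WT and slightly higher with KCl in cKO at most of the shared regions. In WT the median pileup with KCl was 0.800 times that without, a log2 difference of -0.32, and 83.7% of the regions lay below 0. In cKO the median ratio was 1.08, a log2 difference of 0.11, and 62.8% lay above 0. The floor differed by -0.18 in both genotypes, so the size of each response depends on how depth is treated. The median fold over background was 3.98 without and 3.65 with KCl in WT, and 3.53 and 4.14 in cKO. By fold the cKO difference was thus the larger of the 2. The median difference between the responses, WT minus cKO, was -0.43 on the log2 pileup scale (interval of the median -0.44 to -0.42), and 84.2% of the regions had a negative value. The interval counts regions and leaves out the spread between cultures, libraries and lists. Which of the 4 lists carries the shift cannot be told apart.

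Ranks within each list depend on list length as well as on the regions. The median response was -5.32 points in WT (-5.82 to -4.98) and 1.92 points in cKO (1.63 to 2.25). The median difference was -9.02 points (-9.62 to -8.33), with the middle of the distribution, from its lower to its upper quartile, between -28.2 and 0.91 points. The WT response was at least 20 points above the cKO response in 516 regions, 7.33% of the members, and at least 20 points below it in 2332, 33.1%. With ranks among the shared regions the median was 0.01 points, and the 2 directions held 1725 (24.5%) and 1704 (24.2%) regions. The excess of regions with the lower WT response was thus present with ranks from lists of unequal length. With each list limited to the length of the shortest, the median was -0.73 points over 6503 regions, with 1131 above and 1303 below, so the within-list ranks add no support to the shift in the pileups. Ranks among the shared regions cannot show such a shift, since their mean response is 0 in both genotypes by construction, and they compare regions only with one another.

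**Figure D1:**
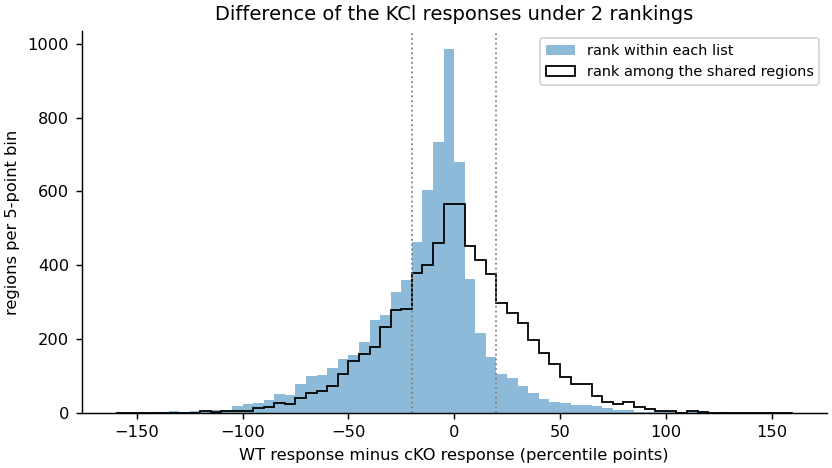
Histogram of the WT response minus the cKO response in percentile points for the 7043 shared regions, with ranks within each list (filled) and with ranks among the shared regions (line); dotted lines stand at 20 points either side of 0. The filled distribution leans to negative values, with a median of -9.02, and the line is centred at 0.01.

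How far the 2 genotypes responded in the same direction depended on the scale. By log2 pileup, 2447 regions (34.7%) had the same sign of response in both genotypes. The largest group, 3737 regions, was lower with KCl in WT and higher in cKO. On that scale 83.7% of all members were lower in WT and 62.8% higher in cKO, so this group would be the largest without any link between the responses. Within-list ranks had the same sign of response in both genotypes at 3220 regions, or 45.7% (44.6 to 46.9), and shared-region ranks at 3481, or 49.4% (48.3 to 50.6). By shared-region rank, 1709 regions were higher with KCl in both genotypes, 1772 lower in both, 1809 higher in WT alone and 1740 lower in WT alone. The 4 combinations were of almost equal size. Across the 7043 regions Pearson's r between the WT and the cKO response was -0.01 with either ranking and -0.09 by log2 pileup, given as a description since regions share their libraries. Of the regions higher with KCl in WT, 1709 were higher and 1809 lower in cKO by shared-region rank, 1230 and 842 by within-list rank, and 543 and 324 by log2 pileup.

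**Figure D2:**
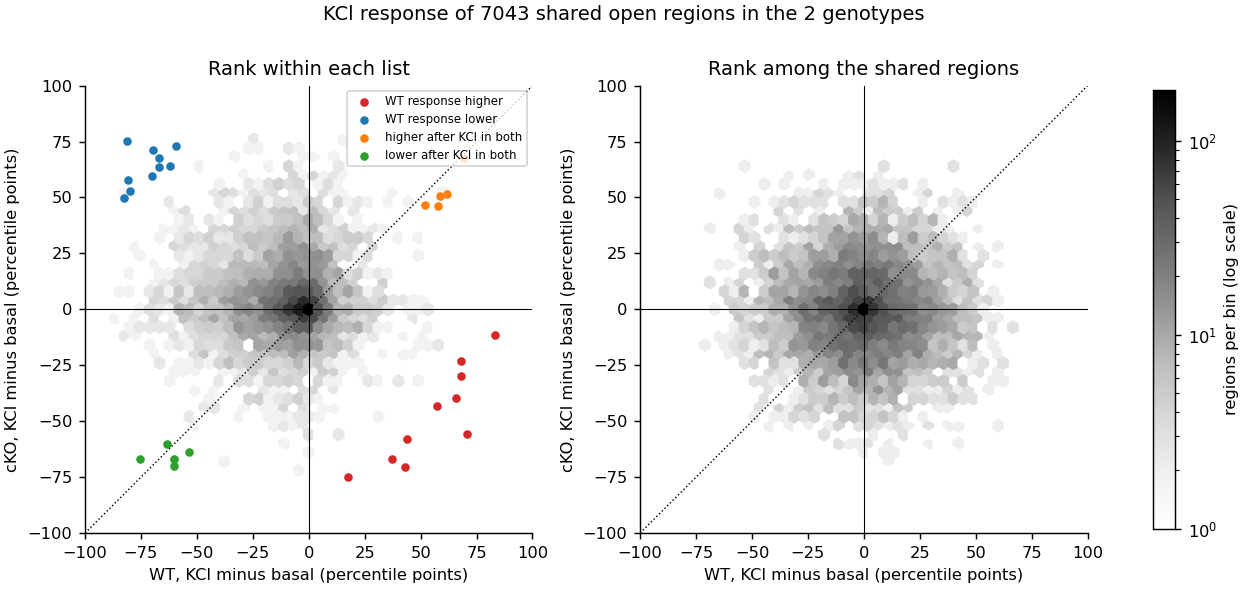
KCl minus basal rank in WT (horizontal axis) against cKO (vertical axis), in percentile points, with ranks within each list on the left and among the shared regions on the right; shading gives regions per bin on a log scale, the dotted line is equality, and coloured points are the named regions. On the right all 4 quadrants are filled about equally, with 1709 to 1809 regions in each.

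Large responses that were alike in both genotypes were as rare as opposite ones. By shared-region rank, 249 regions (3.54%) were at least 20 points higher with KCl in both genotypes and 215 (3.05%) at least 20 points lower in both. The opposite pairs held 232 regions (3.29%), higher in WT and lower in cKO, and 240 (3.41%), lower in WT and higher in cKO. Within-list ranks gave 108 (1.53%) higher in both and 182 (2.58%) lower in both.

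The intervals of single regions left out the median at 4.93% of members, a share that varied with strength. The counting standard error of the log2 difference between the responses had a median of 0.45, so a region of typical pileup needed to lie 1.84-fold from the value it was compared with. The interval of 347 regions (4.93%) left out the median over regions, -0.43. Of these regions, 127 (1.8% of members) lay above and 220 (3.12%) below. Against the median of its own quintile of mean pileup, the share was 1.42% in the weakest quintile and 8.80% in the strongest. Members had to be called in all 4 lists, so the share that counting error alone would give is not known here. Against 0 rather than the median, 1285 regions (18.2%) had an interval below 0 and 3 (0.0426%) above. The spread of the difference between the responses, with an SD of 0.43 over regions, was also compared with 2 other ways of pairing the same 4 lists. The SD was 0.39 for KCl over both genotypes and 0.38 for genotype over both treatments, where 207 (2.94%) and 197 (2.80%) intervals left out their own median. The difference between the responses was the widest of the 3, by a small margin that has no replicate error.

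The regions at the high end had a WT response that pointed up and a cKO response that pointed down. At the start of Csnk1g2, a gamma casein kinase gene (chr10, 80622001 to 80622813), the within-list ranks were 11.96, 82.5, 72.4 and 16.8. The pileups were 43, 55, 56 and 38 fragments in that order. WT KCl and cKO basal were thus the high lists, the difference between the responses was 126.1 points (89.7 by shared-region rank), and the log2 pileup difference was 0.91 (0.09 to 1.74). Htr1a, which encodes the serotonin 1A receptor, had a region 576 bp from its start (chr13, 105444269 to 105445353) with ranks of 30.7, 73.9, 84.1 and 13.6 and pileups of 26, 31, 38 and 23. Its difference was 113.7 points, and its log2 pileup interval, -0.08 to 2.04, included 0. The same crossing was seen at Armc7 (chr11, 115475440 to 115475771), with pileups of 32, 43, 41 and 34 and a difference of 105.5 points.

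The other regions of the upper end followed at smaller size. Atxn7l2, a relative of the SAGA subunit ataxin 7, had pileups of 41, 44, 54 and 37 at its start and a difference of 104.1 points. The intragenic region in Nr5a2, the gene of a nuclear receptor, stood at 101.7 points and the one in Vsig8 at 100.2. Ccdc149 (97.7 points) and Zfp638 (92.7 points) carried theirs at the start, and Prelid3a (94.5 points) within the gene. Htr3a, which encodes a subunit of the serotonin-gated channel, closed this group at 91.1 points with pileups of 26, 40, 40 and 32. Of these 10 regions, 7 were at gene starts and 3 intragenic, and pileups ran from 23 to 56 fragments. The interval of Csnk1g2 was the only one of the 10 to leave out 0, while all 10 left out the median over regions, -0.43. The fold values that chose these regions also give the pileups, so their intervals describe the choice and support nothing further.

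The lowest values mirrored this pattern, with WT basal and cKO KCl as the high lists. The region in Arpp21, a cAMP-regulated phosphoprotein gene of forebrain neurons (chr9, 112235182 to 112235866, intragenic, 1460 bp from the start), had ranks of 89.9, 8.56, 14.7 and 90.1. Its pileups were 42, 22, 25 and 43 fragments. The difference between the responses was -156.7 points (-117.9 by shared-region rank) and -1.72 in log2 pileup (-2.74 to -0.69). In Maml3, a Notch coactivator gene (chr3, 51889800 to 51890448, intragenic), the pileups were 48, 28, 28 and 42 and the difference -140.8 points. At the start shared by Tmem251 and Moap1 (chr12, 102743407 to 102744029), the one with the full cAMP response element printed above, they were 42, 25, 27 and 42 and the difference -138.8 points. In these 3 regions the WT KCl and cKO basal values were close to each other, as were the WT basal and cKO KCl values.

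The same crossing held for the rest of the lower end. Sgms1, a sphingomyelin synthase gene, had pileups of 59, 30, 33 and 49 near its start and a difference of -133.0 points. Smurf1, the gene of a ubiquitin ligase that acts on BMP receptors and Smads, had 55, 27, 31 and 40 (-132.4 points). Vegfc, the gene of a lymphatic growth factor (chr8, 54076940 to 54077478), had 51, 25, 26 and 43, a difference of -125.9 points (-119.6 by shared-region rank) and -1.75 in log2 pileup. The remaining 4 were 18.6 kb from Sntn (-134.6 points), at Snx20 (-132.7 points), 2.56 kb from Capn9 (-130.4 points) and at Abhd8 (-129.3 points). All 10 intervals lay below 0, which the choice of the lowest values largely fixed. Only 4 of the 10 left out the median over regions, -0.43, beside all 10 at the upper end. Of the 10 regions at the lower end, 6 were at gene starts, 2 intragenic and 2 intergenic, with pileups between 22 and 60.

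**Figure D3:**
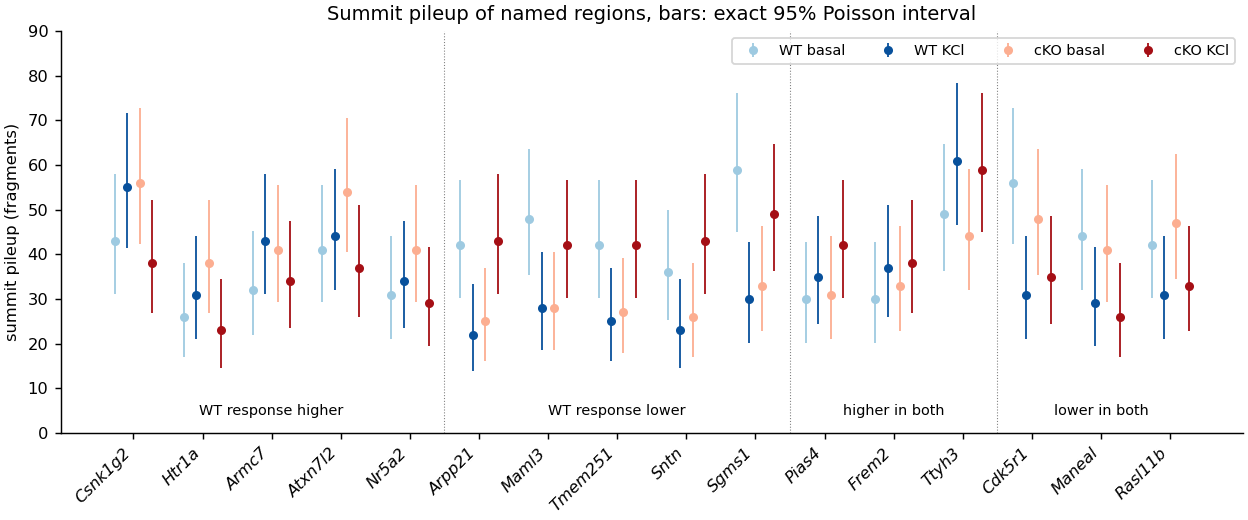
Summit pileup in fragments of 16 named regions in the 4 lists (the last 6 at gene starts), with exact 95% Poisson intervals as bars. At the 5 regions on the left WT KCl and cKO basal are the higher points, at the next 5 WT basal and cKO KCl are, and at the last 6 both KCl points stand on the same side of the basal points.

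Regions that were alike in the 2 genotypes included neuronal genes. Nrgn encodes neurogranin, a postsynaptic calmodulin-binding protein, and its start had pileups of 27, 36, 29 and 34. Pias4, a SUMO ligase gene, had ranks of 1.68, 71.3, 10.2 and 77.8 and pileups of 30, 35, 31 and 42. Frem2, Ttyh3 and Tmem132c completed the 5 with the highest shared response. Cdk5r1 encodes p35, the activator of the neuronal kinase Cdk5, and it led the opposite group with pileups of 56, 31, 48 and 35 (ranks 79.4, 4.19, 75.6 and 8.56). Pcdh10, an adhesion gene, had 54, 36, 50 and 37, and Maneal and Rasl11b were also in this group. KCl values were above basal values in both genotypes at the first 5 and below in both at the second 5, as the choice of these regions required.

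Regions that stood farthest from the median against their own counting error were also looked at, and these were chosen after their values were seen. The 3 intervals above 0 belonged to Csnk1g2, Patl1 and a region 2.81 kb from Itln1. Patl1, an mRNA decay factor gene (chr19, 11911980 to 11912551), had pileups of 43, 44, 55 and 27 and a log2 difference of 1.06 (0.16 to 1.96). The Itln1 region (chr1, 171514957 to 171515318) had 40, 50, 73 and 37 and the largest value of all, 1.30 (0.47 to 2.13), while the other 5 shared regions nearest Itln1 had values from -0.62 to 0.29. At the low side stood the starts of Wwox (69, 37, 36 and 74 fragments, log2 difference -1.94), Armc1 (92, 40, 59 and 88, -1.78) and Cdc34, a ubiquitin-conjugating enzyme gene (82, 34, 48 and 71, -1.83). Klf7, a Krüppel-like factor gene of neurons, had an intragenic region with 68, 28, 38 and 62 fragments and -1.99, the lowest value of all. Fzd1, a Wnt receptor gene (71, 39, 38 and 70, -1.75), and Klf5 (66, 35, 35 and 64, -1.79) had the same shape. In these low regions WT KCl and cKO basal were the low lists each time.

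The size of the difference varied with the strength of a region, in opposite ways on the pileup and on the rank scale. Over quintiles of mean pileup, from weakest to strongest, the median log2 difference was -0.21, -0.36, -0.45, -0.50 and -0.63. The within-list rank difference ran the other way, with medians of -15.8, -16.3, -13.6, -8.15 and -2.85 points and 643 regions 20 points below in the weakest quintile against 149 in the strongest. The share of intervals that left out the overall median was 2.56% in the weakest quintile and 10.6% in the strongest. A region had to be called in every list to be counted, so weak regions with a much lower value in 1 list are not among the members. With ranks among the shared regions, which remove a shift common to a list, the weakest quintile had more regions 20 points above (439) than below (274), and the strongest 173 against 211.

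The regions with the most fragments were an exception to the pileup trend. Beyond 100 fragments the median log2 difference was -0.03 over 57 regions, against -0.79 over the 178 regions from 70 to 80 fragments and -0.65 over the 1352 regions of the strongest quintile up to 100. This limit was chosen after the values were seen. Only 4 of the 57 were at gene starts, 24 had Cwc22, a splicing factor gene, as the nearest gene and 8 had Sfi1, a centrin-binding protein gene. In all, 31 regions were nearest Cwc22 (chr2, 77869662 to 78027154), with median pileups of 113, 99, 131 and 121. There cKO was above WT in 31 of 31 regions both without and with KCl, and the median log2 difference between the responses was -0.004. Cwc22 lies in a segment whose copy number is known to vary between mouse strains, and copy number was not measured here. The 9 regions nearest Sfi1 (chr11, 3101099 to 3200026) had a median of -0.13, and the other 25 regions over 100 fragments one of -0.03.

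**Figure D4:**
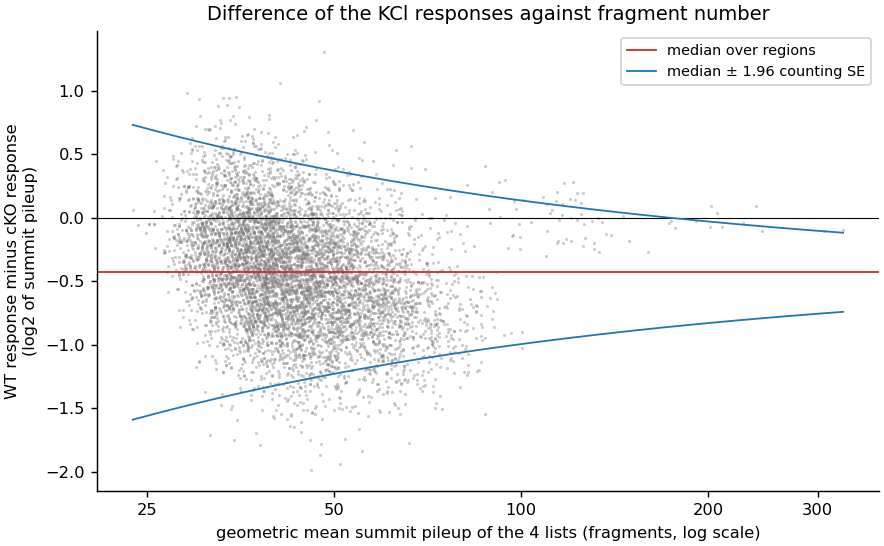
WT response minus cKO response in log2 summit pileup (vertical axis) against the geometric mean pileup of the 4 lists in fragments (horizontal axis, log scale), 1 point per region; the red line is the median of -0.43 and the blue lines stand 1.96 counting SE either side of it. Points move down with pileup up to about 80 fragments, and the 57 regions over 100 fragments lie around -0.03.

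Genes of the activity response were read from a list of 20 rapid and 20 delayed genes. Of the rapid genes, 15 had a shared region within 50 kb, 24 regions in all, and 6 had one at the start (Btg2, Dusp1, Egr1, Fos, Fosl2 and Jun). Of the delayed genes, 10 had 14 regions and 8 had one at the start (Crem, Dusp6, Fbxo33, Homer1, Nr4a2, Nr4a3, Rgs2 and Tiparp). A region at Per1 (chr11, 69094752 to 69095356) spans 1 end of that gene. It is not counted among the 8, since no annotated start lies within 1 kb of it. Bdnf, the neurotrophin gene, had none within 50 kb. Of the 24 rapid regions, 17 lay at a gene start, but only 6 at the start of a listed gene. Over the 24 the median difference was -9.07 points, beside -9.02 over all members. Of the 24, 1 was 20 points above and 8 (33.3%) below, beside 7.33% and 33.1% of all members. By shared-region rank the median of the 24 was 7.54, with 5 above and 5 below, beside 24.5% and 24.2% of all members. No interval of the 24 or of the 14 delayed regions left out the overall median.

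At Fos itself the genotypes differed mainly without KCl. The within-list ranks of its start (chr12, 85473525 to 85474220) were 81.2, 38.5, 1.41 and 39.2, with pileups of 47, 37, 29 and 40 fragments. WT basal was the highest list and cKO basal the lowest, while both KCl lists lay between them at nearly the same rank. The difference was -80.5 points (-26.6 by shared-region rank), and in log2 pileup -0.81 (-1.74 to 0.12). A region 18.2 kb before Fos had 63, 49, 54 and 63 fragments and -6.89 points, and one 8.55 kb beyond it had 42, 33, 33 and 39 and -46.2 points. All 3 Fos regions had fewer fragments with KCl in WT and more with KCl in cKO, as did 3737 of all 7043 members. Each of their log2 pileup intervals included 0.

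The other named activity genes did not share 1 pattern. Jun, the partner of Fos in AP-1, had 71, 53, 66 and 66 fragments at its start and a difference of -0.45 points. Egr1, a zinc finger factor gene, had 57, 46, 58 and 57 and -3.21 points. Npas4, a neuronal activity factor gene, had an intragenic region 11784 bp from its nearest annotated start, with 43, 45, 30 and 53 fragments. Its ranks were 81.9, 90.4, 6.66 and 89.6, which gave -74.5 points. There cKO basal alone was low. Btg2, an antiproliferative gene, had 52, 56, 44 and 59 and -11.2 points, with KCl above basal in both genotypes. Dusp1, a MAP kinase phosphatase gene, had 45, 39, 44 and 35 and 7.69 points, with KCl below basal in both. Junb had no shared region at its start, and the nearest, at Rnaseh2a 10.6 kb away, stood at 58.7 points with 55, 38, 44 and 28 fragments. Nr4a1, an orphan nuclear receptor gene, had none at its start either, and a region 7.16 kb away stood at -12.0 points with 57, 55, 48 and 60.

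Among the 14 starts of these genes, 4 (Fos, Fosl2, Nr4a2 and Nr4a3) were 20 points lower in the WT response by within-list rank and none 20 points higher, beside 33.1% and 7.33% of all members. By shared-region rank Jun (26.9 points), Egr1 (21.6 points) and Homer1 (28.5 points) were 20 points higher, and Nr4a3, at -18.4 points, was no longer 20 points lower, while Dusp6, at -30.5 points, was. On that rank 24.5% of all members were 20 points higher and 24.2% lower. The log2 pileup differences of Jun, Egr1 and Homer1 were -0.42, -0.28 and -0.17, with intervals that included the median of all regions, -0.43. Fosl2, another AP-1 gene, had 57, 40, 43 and 55 fragments and a log2 difference of -0.87 (-1.69 to -0.05). Nr4a2, a nuclear receptor gene, had 31, 25, 27 and 38 and the lowest rank difference of the group, -87.8 points, while Homer1, a postsynaptic scaffold gene, had the highest of the delayed regions at 4.70 points. Dusp6, a phosphatase gene for ERK, had 84, 39, 62 and 63 fragments, where WT basal was high and WT KCl low, and a log2 difference of -1.13 (-1.88 to -0.38). Tiparp, an ADP-ribosyltransferase gene, had 63, 41, 49 and 62 and -0.96 (-1.74 to -0.18). These 3 intervals lay below 0 and included the median of all regions.

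**Figure D5:**
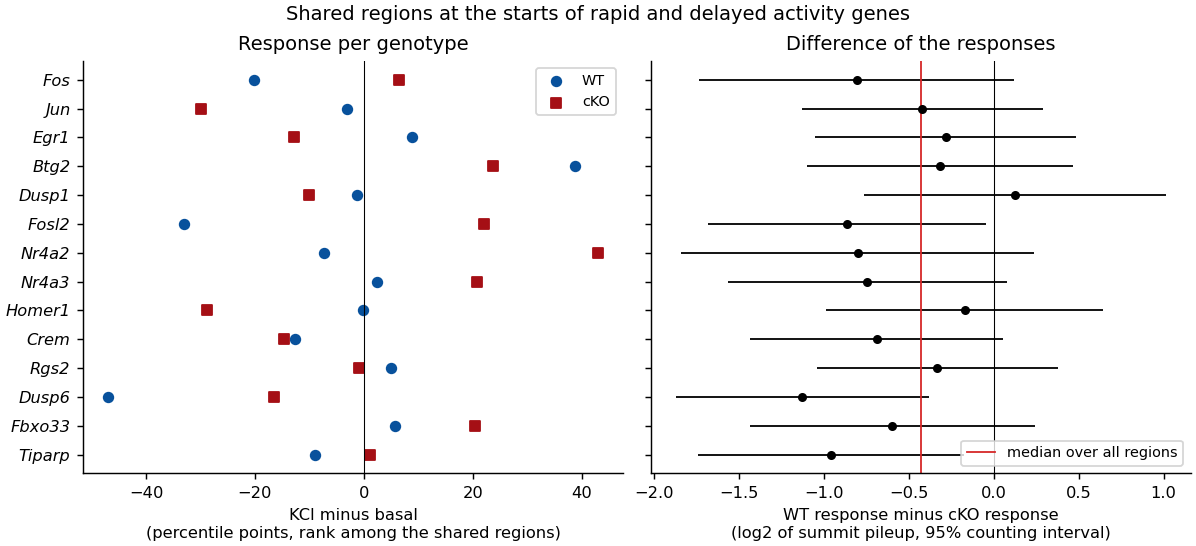
Shared regions at the starts of 14 rapid and delayed activity genes: KCl minus basal rank among the shared regions in WT (circles) and cKO (squares), left, and the WT minus cKO difference in log2 summit pileup with its 95% counting interval, right, where the red line is the median over all regions, -0.43. All intervals on the right include the red line.

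The BAF subunits and the signalling genes had more regions 20 points below than above by within-list rank, as did all members (33.1% and 7.33%). The BAF list had 51 regions, with 2 at least 20 points above and 20 below and a median of -11.5 points. By shared-region rank it had 11 above, 12 below and a median of 3.37, where 24.5% of all members were above and 24.2% below. Smarcd1, which encodes BAF60a, was its lowest region at -90.0 points, with 62, 34, 48 and 57 fragments and a log2 difference of -1.11 (-1.93 to -0.30), and Bcl7a its highest at 26.6 points, a direction that its log2 pileup difference of -0.02 did not share. The start of Smarca4 itself (chr9, 21615669 to 21616724) had 53, 51, 63 and 58 fragments and 4.55 points. Whether the floxed exons include this start is not given in the sources used here, so it is no check of the deletion. Activity signalling genes had 36 regions with a median of -4.13 points, 2 above and 9 below, and a region at Dus2, 47.1 kb from Nfatc3, was the lowest at -86.2 points.

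Lists of neuronal function and of neuron classes held few regions each, and their differences were not tested. Beside them, 33.1% of all members were 20 points below and 7.33% above by within-list rank, and 24.2% and 24.5% by shared-region rank. Synapse genes had 26 regions, a median of -17.5 points (-10.3 by shared-region rank), 3 above and 12 below. Their extremes were Ssna1 near Grin1 (44.0 points) and Cttn near Shank2 (-65.0 points). Ion channel genes had 11 regions, a median of -22.2 points (-8.46 by shared-region rank), none 20 points above and 6 below by within-list rank, and none above and 4 below by shared-region rank. Kcnq3, an M-current potassium channel gene, was the lowest there at -38.2 points, with a log2 difference of -0.92 (-1.75 to -0.09). Excitatory neuron markers had 12 regions with a median of -2.23 points (14.4 by shared-region rank), 2 above and 1 below, the lowest at Foxp1 (-42.2 points). Inhibitory markers had 8 regions with a median of -4.82 points (9.61 by shared-region rank), none above and 3 below, where both extremes lay in Myo3a near Gad2, at 14.2 and -36.8 points. The second of these was positive by shared-region rank, at 5.61 points, and in log2 pileup, at 0.07. The synapse, channel and class lists together held 1 interval that left out the overall median, so these medians describe regions that were each within counting error, except that 1.

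Markers of other cell types were thinly covered. For the counts given here, 33.1% of all members were 20 points below and 7.33% above by within-list rank. By shared-region rank these shares were 24.2% and 24.5%. Shared regions stood at the starts of 4 of 20 excitatory markers (Foxp1, Nfib, Pou3f2 and Pou3f3), 2 of 18 inhibitory ones (Maf and Reln) and 5 of 16 progenitor markers. Astrocyte markers had 2 of 10 (Glul and Sox9), oligodendrocyte markers 2 of 10 (Olig1 and Olig2), and microglial and vascular markers none of 10 each. Progenitor genes had 10 regions with a median of -30.6 points, 9 of them 20 points below (-13.6 points, with 1 above and 4 below, by shared-region rank), from 8.11 at Hes1, a Notch target, to -65.8 at Notch2. Oligodendrocyte genes had 9 regions and the lowest median, -53.8 points, with 6 below (-15.8 by shared-region rank, with 1 above and 3 below), and the lowest of them lay 33.3 kb from Olig2 at -64.7 points (-3.99 by shared-region rank). The highest of them was Acly near Cnp at 13.3 points. Astrocyte genes had 6 regions with a median of -12.0 points (-17.7 by shared-region rank), from -72.8 at Slc1a3, a glutamate transporter gene, to 24.7 at Sox9, whose log2 pileup difference was -0.06. Microglial genes had 6 regions with a median of -12.7 points, none past 20 points in either direction (13.5, with 2 above and none below, by shared-region rank), from -16.9 at Hmgxb3 near Csf1r to 8.53 at Lrfn3 near Tyrobp, and vascular genes 4 with -16.3 (-21.8 by shared-region rank), from -26.8 at Ift20 near Vtn to -7.40 at Cdc45 near Cldn5. A region near a marker gene does not count cells of that type. The part of cell composition in the responses was not tested.

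Housekeeping lists had medians between -17.5 and -5.89 points. Beside their counts, 33.1% of all members were 20 points below and 7.33% above by within-list rank. By shared-region rank the medians were 0.43 (ribosomal), -5.85 (respiratory), 6.11 (heat shock), 1.54 (cell cycle), -0.17 (chromatin) and -2.83 (DNA repair). The regions 20 points above and below were then 14 and 12, 3 and 7, 5 and 5, 8 and 6, 9 and 9, and 5 and 8. Over all members these shares were 24.5% and 24.2%. Cytosolic ribosomal protein genes had 43 regions with a median of -5.89 points, 4 above and 13 below, and the lowest was Rps14 at -103.7 points. Respiratory chain genes had 30 regions and -14.5 points with none above and 11 below, from -67.1 at Mtch2 near Ndufs3 to 3.36 at Tecr near Ndufb7. Heat shock genes had 29 regions and -8.15 points with none above and 9 below, from -71.7 at Wdr20, 41.0 kb from Hsp90aa1, to 12.7 at Hsp90aa1 itself, a chaperone gene. Cell cycle genes had 21 regions and -17.5 points with 2 above and 8 below, from -63.0 at Abtb1 near Mcm2 to 82.2 in an intergenic region 36.3 kb from Ccne1, a cyclin gene. Chromatin regulators other than BAF had 46 regions and -10.6 points, with Dnmt3a, a DNA methyltransferase gene, at 64.5 as the highest and a region 42.9 kb from Chd7 at -66.5 as the lowest. DNA repair genes had 27 regions and -13.0 points, and the lowest lay at Irak2 near Fancd2 (-100.7 points). Of the 19 lists, 17 had more regions 20 points below than above by within-list rank, as did all members together. By that rank 13 had a median below that of all members, while 9 had a median below 0 by shared-region rank. In all the lists together 12 intervals left out the overall median.

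Position relative to genes separated the regions only weakly. Of the members, 5744 (81.6%) lay within 1 kb of a gene start, 666 (9.46%) elsewhere in a gene and 633 (8.99%) between genes. For the 4408 genes without an annotated start, either end of the gene counted as a start. Regions 20 points lower in the WT response made up 31.5% of those at gene starts, 40.8% of the intragenic and 39.8% of the intergenic ones, and regions 20 points higher made up 6.79%, 9.61% and 9.79%. By shared-region rank the lower share was 23.6%, 26.6% and 27.2% and the higher share 24.3%, 25.1% and 25.3%. Gene starts thus held fewer of the regions past 20 points in either direction by within-list rank, and by shared-region rank the classes lay within 4 points of one another. Beyond 100 kb from any start, 33.3% of 252 regions (27.5 to 39.5) were 20 points lower by shared-region rank, beside 24.2% of all members, and 23.0% were higher.

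Base composition and neighbourhood bore little relation to the difference. At the 4508 members with a start that has RefSeq promoter sequence, Spearman's rho with GC content was 0.03 by shared-region rank and 0.01 by log2 pileup. From the lowest GC quintile (median 55%) to the highest (75.0%), the median log2 difference stayed between -0.46 and -0.44. Over 434 pairs of neighbouring members within 10 kb, rho was 0.06. By chromosome the median shared-region difference ran from -2.68 to 4.01 points.

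Promoter motifs were counted in the same 300-base windows, on both strands, for 9 consensus sequences. Of all 20085 mouse promoters in the table, 2.30% held the full cAMP response element, TGACGTCA, and of the 4508 member promoters 4.01% did. By within-list rank it was present in 3.10% (1.43 to 5.81) of the 290 promoters with a WT response 20 points higher. For the 1384 with one 20 points lower the share was 5.13% (4.03 to 6.43), and the 2 intervals overlapped. By shared-region rank the shares were 3.41% and 4.38%. Over the quintiles of mean pileup, from weakest to strongest, it was in 5.11%, 5.31%, 3.53%, 4.93% and 1.55% of member promoters. The short form, TGACG, which is part of the full one, was in 37.4% of member promoters, 35.5% of the higher and 36.7% of the lower. The AP-1 element, TGANTCA, was in 3.24%, 3.45% and 3.18% in that order. The GC box, GGGCGG, was in 77.7%, 77.9% and 75.8%, the ETS element, CCGGAAG, in 20.4%, 17.6% and 21.4%, the E-box, CACGTG, in 10.3%, 11.4% and 9.47%, the NRF1 element in 12.2%, 12.4% and 13.2%, and the TATA box, TATAAA, in 3.93%, 4.14% and 3.83%. Over all promoters the shares were 24.0% for the short form, 7.06% for AP-1, 47.0% for the GC box, 11.9% for ETS, 7.89% for the E-box, 6.55% for NRF1 and 12.7% for the TATA box. None of the shares set the higher and lower promoters apart by more than 4 percentage points. A match describes letters in the window and not a bound factor.

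The CCAAT box, bound by NF-Y, followed the strength of a promoter. It was in 38.1% of all promoters and in 44.7% of member promoters. Over the quintiles of mean pileup the share was 27.2%, 33.8%, 42.9%, 50.5% and 64.7%. Promoters whose pileup interval lay below the median difference held it in 95 of 153 cases, 62.1% (53.9 to 69.8), and those above it in 30 of 71, 42.3% (30.6 to 54.6). Since the regions below the median were also the stronger ones, the strongest quintile was read alone: there the share was 70.5% (59.8 to 79.7) of 88 promoters below the median and 64.4% (61.1 to 67.6) of 873 whose interval included it. Within that quintile the 2 intervals overlapped.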

How the data were processed

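The labels give 60 M reads for each of the 8 libraries. Per the submitters' processing notes, Bowtie2 and MACS2 were used with builds GRCm38 and mm10, names of the same assembly. Their versions and settings, the steps before peak calling and how 2 libraries became 1 list were not given in the sources used here. For each condition the authors deposited 1 list of peaks from nucleosome-free fragments, with a display score per peak, a fold over local background at the summit (a ratio), and the −log10 of its p-value and q-value. These are the authors' values and were used within a list, to rank, filter or describe its peaks. No columns of unmatched samples were present (0).

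Peaks were merged by 1 bp overlap, and ranks were taken over all peaks of a list on chromosomes 1 to 19. The whole-number summit pileup was solved from the deposited fold, taken as (pileup + 1)/(background + 1), and the Poisson −log10 p. A whole number reproduced both values for 100% of peaks, within 0.001 in −log10 p. The counting standard error of a log2 pileup difference was the root of the summed inverse pileups, and intervals stand 1.96 standard errors either side. Shares carry exact 95% Clopper-Pearson intervals and medians an order-statistic binomial one. Gene positions came from RefSeq tables whose build, GRCm38.p6, matches that of the lists. Of 21900 protein-coding genes 17492 had an annotated start. For the other 4408, either end of the gene was used. All genes of the 19 lists (354 genes in 355 entries) matched by symbol, and a list's regions lay within 50 kb of its genes. Motif counts were made on the promoter sequences of the same tables, and no exon, intron or UTR class was assigned.

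Named regions were the 10 highest and 10 lowest differences whose sign also held by shared-region rank and by log2 fold, the 5 strongest responses in each direction that were alike in both genotypes, the regions of chosen activity genes, and the highest and lowest region of each gene list; some of these are not reported here. The members and lists were chosen with earlier results of these data known. With 1 list per condition there is no test between conditions, and the merging, pileups and intervals were checked on simulated data. Python 3.11.15, numpy 2.4.6, pandas 2.3.3, scipy 1.17.1 and matplotlib 3.10.9 were used.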

Additional observations from a re-analysis of the deposited data

Results flagged for a closer look

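The log2 summit pileup after KCl relative to before, not scaled for depth, was -0.32 at the median in WT and 0.11 in cKO. The difference was -0.4309 over the 7043 shared regions. The value stands out because the 2 genotypes lay on opposite sides of 0. Each genotype has 1 list per treatment, and the difference was not tested.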

How the results depend on the processing

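No paired analysis was possible because each list stands for a condition without separate libraries. For the same reason no library could be left out. The median difference of -9.02 points was 0.0142 with ranks among the shared regions, where the 2 directions held 1725 and 1704 regions in place of 516 and 2332, 49.4% had the same sign in both genotypes, and 81.0% and 79.5% of those past 20 points higher and lower lay at gene starts. With each list limited to the length of the shortest, 6503 regions gave -0.728 points, 1131 higher, 1303 lower, 49.5% of the same sign and 80.7% of the higher ones at gene starts. With the median subtracted, the median was 0, 825 were higher and 1707 lower, 47.0% had the same sign and 75.6% of the lower ones lay at gene starts. The split between directions thus follows the scaling of the ranks. With summits within 150 bp of one another, 4442 regions remained with a median of -7.36 points, 252 higher and 1279 lower. Peaks with a −log10 q of 3 or more gave -10.6 points and a gene-start share of the lower regions of 79.2%, and regions with exactly 1 peak from each list a share of 75.4%. Thresholds of 10 and 30 points gave 881 and 316 higher regions and gene-start shares of the lower ones of 79.6% and 75.5%, and a start distance of 500 bp gave 75.3%. Of 674 values for the 78 named regions, 636 stayed on their side of 20 points where points were given, with sizes that could change by over 2 times, 34 crossed 20 points, and 4 of regions past 20 points changed sign: Bcl7a (-0.0245 in log2 pileup), Sox9 (-0.0643 in log2 pileup) and the lower Myo3a region (5.61 points by shared-region rank and 0.0701 in log2 pileup). Regions under 20 points changed sign in 45 further values, such as Cdk5r1 (12.98 points by shared-region rank against -8.18). The causes were not tested. Leaving out regions over 100 fragments, an alternative chosen after seeing the data, gave 6986 regions and -9.14 points. With a median counting standard error of 0.45 (log2), a difference under 1.84-fold was not detectable in a typical region at this depth.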
